A study of Mus musculus with 9 samples.

Results

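The 7 genes described here belong to the somatotrophs and lactotrophs, the cells of the anterior pituitary that make growth hormone (GH) and prolactin (PRL). They were chosen by name for these roles and were found by symbol among the 55450 genes counted. They comprise the hormone genes *Gh* and *Prl*, the transcription factor genes *Pou1f1* and *Neurod4*, and the receptor genes *Ghrhr*, *Ghsr* and *Prlr*. The RNA sequenced came from 7 Rathke’s pouches at e13.5, each from 1 embryo heterozygous for an *Egfp* allele of *Sox2* (*Sox2* Egfp/+), and from the pituitaries of 2 adult mice at 8 weeks, each without its posterior lobe. Both groups were bred on a mixed 129Sv/c57BL6J background, and the genotype of the adults was not given in the sources used here. Rathke’s pouch is the epithelial pocket from which the anterior and intermediate lobes form. The embryos were 2 males and 5 females and the adults 1 male and 1 female, but the sex of single libraries was not given, so sex was not used. The question was how far these genes differed between the forming and the mature gland, and how the single libraries varied.

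*Pou1f1* encodes PIT1, a transcription factor that binds and activates the genes for GH, PRL and the β-subunit of thyroid-stimulating hormone. Adult mice without it lack the cells that make these hormones. GHRHR and GHSR, the receptors for GH-releasing hormone and ghrelin, are coupled to G proteins and raise the output of GH, and receptors for somatostatin lower it. Lactotrophs are held back by dopamine through the receptor DRD2, and PRL acts on its targets, among them the hypothalamus and the pituitary itself, through PRLR and the JAK2–STAT5 pathway.

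The embryo libraries held 16738863 to 28537311 read pairs counted on genes (median 24687556), and adults 1 and 2 held 36421545 and 31191117. Levels are given as CPM, counts scaled with edgeR’s TMM factors to a common library of 1000000, and 3 counts, used as the floor of detection, corresponded to 0.0962 to 0.220 CPM in the embryos and to 0.0727 and 0.0843 CPM in adults 1 and 2. Intervals and floors cover counting error only, because PCR duplicates were not separated. Embryos 1 and 4 stood apart before any test, with 59.7% and 62.8% of their read pairs assigned to genes, whereas this share was 73.9% to 80.0% for the remaining 5. The summed level of 5 red-cell genes (*Hba-a1*, *Hba-x*, *Hbb-bt*, *Hbb-y* and *Alas2*) was 143980 and 187030 CPM in these 2 embryos, against 5584 to 16671 CPM in the other 5 and 291 and 619 CPM in the adults. *Hbb-y* had the highest mean level of them in the embryos and *Hba-a1* in the adults. Without both embryos 1 and 4 all 7 genes kept their calls.

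The labels were checked against marker genes. In adults 1 and 2 the somatotroph markers *Gh*, *Ghrhr* and *Pou1f1* and the lactotroph markers *Prl*, *Drd2* and *Pou1f1* were all present, the lowest being *Pou1f1* in adult 2 with 89.2 CPM. In the embryos *Hesx1*, a factor gene of the early pouch, had 11.0 to 40.3 CPM, against 0.339 and 0.562 CPM in adults 1 and 2. The pouch factors *Lhx3* (107 to 294 CPM) and *Pitx1* (240 to 540 CPM) were present in every embryo, but also in adults 1 and 2, with 115 and 108 CPM and 134 and 109 CPM, so their presence does not check the label. *Avp* and *Oxt* encode neuropeptides made by neurons that project to the posterior lobe. Both genes were above the floor in adults 1 and 2, *Avp* at 1.74 and 3.43 CPM and *Oxt* at 1.57 and 1.69 CPM. Both were called higher in the adult. Whether some posterior lobe remained was not tested.

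All 7 genes passed the filter on low values, an average of 5 or more counts across the 9 libraries, although *Prl*, *Ghrhr* and *Ghsr* passed only through their adult counts. For a gene that passes only through the group where it is high, the filter itself favours a difference. Its call is therefore no independent evidence, and such genes are named below. With edgeR’s quasi-likelihood test, all 7 were called higher in the adult, where called means a fold change above 4 with p below 0.05 after Benjamini–Hochberg adjustment. Of the 19371 genes tested, 14.6% were called higher in the adult and 11.3% were called higher in the embryo. All 7 embryos were below both adults for each of the 7 genes, which held for 32.9% of the genes tested. Since the genes were named for their role in the adult gland, the direction is a description and their levels are the result. The p-values measure the spread between these animals, of which only 2 were adults. In these bulk samples, fewer cells of a type and less RNA per cell cannot be told apart.

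**Figure D1:**
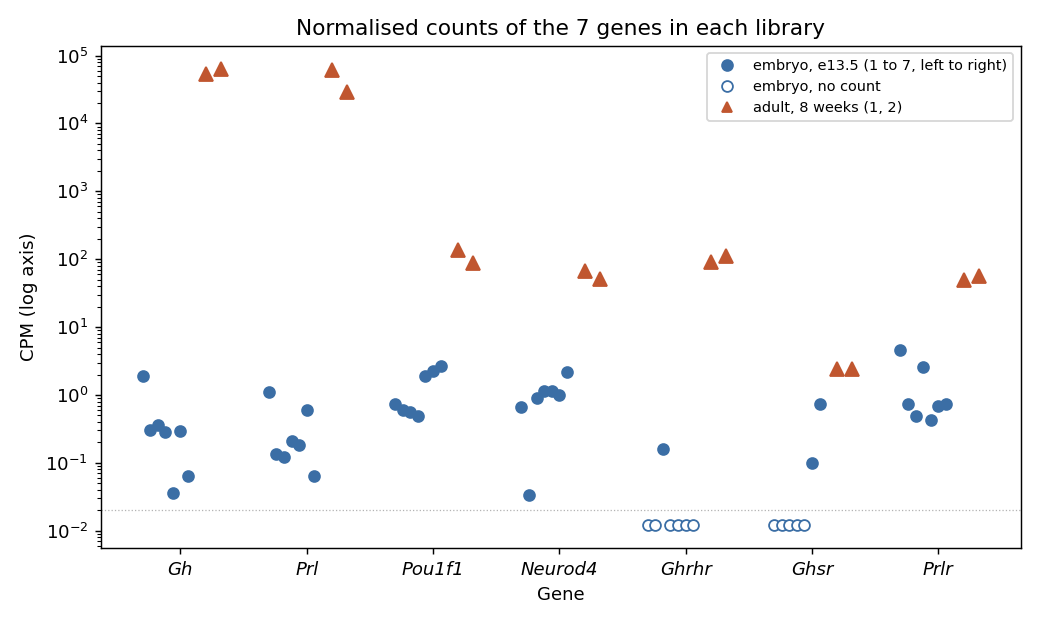
CPM of the 7 genes in each library on a log axis, with embryos 1 to 7 as circles from left to right and adults 1 and 2 as triangles; open circles below the dotted line are libraries with no count. The adults lie above every embryo for each gene, from 2.40 CPM for *Ghsr* to 63814 CPM for *Gh*.

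The hormone genes showed the widest difference. *Gh* (ENSMUSG00000020713, minus strand, chr11:106300271-106301865 in GRCm38) encodes growth hormone. It had 0.0362 to 1.90 CPM in the embryos (median 0.297), from 1 to 26 counts per library, and 53441 and 63814 CPM in adults 1 and 2. Embryo 1 had 26 counts and the other embryos 9 or fewer, and no embryo came near an adult. The log2 fold change, adult over embryo, was 17.13 (standard error 0.90, edgeR adjusted p = 2.0e-08), and it was 17.98 without embryo 1 and 18.07 without embryos 1 and 4. In the adults *Gh* ranked 2 and 1 among the genes tested, and took 6.06% (95% exact binomial interval 6.05% to 6.06%) of the counted read pairs of adult 1 and 7.28% (7.27% to 7.29%) of those of adult 2.

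*Prl* (ENSMUSG00000021342, plus strand, chr13:27057570-27065205) encodes prolactin. It had 0.0641 to 1.10 CPM in the embryos (median 0.181), from 2 to 15 counts, against 62090 and 29377 CPM in adults 1 and 2. Embryos 1 and 6 had the most, with 15 and 12 counts, while embryos 3, 4 and 7 had 3 counts or fewer. The log2 fold change was 17.19 (standard error 0.77, edgeR adjusted p = 4.1e-09), and 17.74 without embryos 1 and 4. Without adult 1, the higher of the pair, it was 16.57, the adult left alone being assumed to vary like the embryos, and with that adult alone it was 17.64. *Prl* ranked 1 in adult 1 and 3 in adult 2, with 7.04% (7.03% to 7.04%) and 3.35% (3.35% to 3.36%) of their counted read pairs.

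The promoter of *Prl* is shown because PIT1 is known to act through it. A relation of *Prl* with *Pou1f1* in these data was not tested. The sequence is the RefSeq window in GRCm38.p6, 250 bases before to 50 after the start, on the plus strand at chr13:27057320-27057619. Capitals mark matches to TATNCAT or its reverse complement ATGNATA, the core of the sites that PIT1 is known to bind, searched on both strands.
*Prl*: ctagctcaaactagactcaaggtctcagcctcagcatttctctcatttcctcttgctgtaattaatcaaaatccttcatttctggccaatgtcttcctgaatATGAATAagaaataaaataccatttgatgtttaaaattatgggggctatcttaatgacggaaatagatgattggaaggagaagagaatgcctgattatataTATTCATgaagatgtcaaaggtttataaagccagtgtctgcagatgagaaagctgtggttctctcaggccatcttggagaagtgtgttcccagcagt
The 2 matches begin at -148 and -47 from the start of *Prl*. A match was found in 8.84% of all 32851 promoter windows of this length, and 2 or more in 1.50%. A match describes the letters only and shows no binding. Promoter windows were found for 5 of the 7 genes, 9 windows in all, and 2 of the 9 held a match, 1 of *Prl* and 1 of *Pou1f1*.

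The few embryonic counts of the hormone genes were looked at more closely after their values had been seen. Summed over the 7 embryos there were 57 counts of *Gh* and 44 of *Prl*, so that *Gh* made up 56.4% of the pair (95% exact binomial interval 46.2% to 66.3%). In adults 1 and 2 the share was 46.3% and 68.5%, and 55.4% of the summed counts. Single embryos went both ways, from 0.2 counts of *Gh* per count of *Prl* in embryo 5 to 3.0 in embryo 3. The interval of the summed embryos leaves out this spread. Embryo 1 alone held 26 of the 57 embryonic counts of *Gh* and 15 of the 44 of *Prl*. For each 1000000 adult counts there were 12.7 embryonic counts of *Gh* and 12.2 of *Prl*. These were the lowest values among the 10 genes with at least 100000 counts in both adults. The next was *Pomc*, the precursor of adrenocorticotrophin, with 11041 embryonic counts on the same basis, followed by *Cga*, the common glycoprotein hormone subunit, with 285630. Whether the embryonic read pairs of *Gh* and *Prl* came from the pouch was not tested.

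The transcription factor genes were lower than the hormone genes in the adults, and their median CPM was higher in the embryos. Per kilobase of the longest annotated transcript, the embryonic means were 0.587 CPM for *Pou1f1* and 0.301 for *Neurod4*, against 0.539 for *Gh* and 0.384 for *Prl*. By these means *Pou1f1* lay above both hormone genes and *Neurod4* below both. The means of the hormone genes were raised by embryo 1, with 1.90 CPM of *Gh* (median 0.297) and 1.10 CPM of *Prl* (median 0.181). The order therefore does not carry over to medians. *Pou1f1* (ENSMUSG00000004842, plus strand, chr16:65520511-65535005) encodes PIT1. It had 0.494 to 2.69 CPM in the embryos (median 0.732), from 7 to 84 counts, and 137.8 and 89.2 CPM in adults 1 and 2. The embryos fell into separate sets, with embryos 1 to 4 at 0.494 to 0.732 CPM and embryos 5 to 7 at 1.88, 2.23 and 2.69 CPM. This gap made up 56.5% of the whole range of log2(CPM + 0.5), and both sets stayed below the adults. The log2 fold change was 6.39 (standard error 0.49, edgeR adjusted p = 5.1e-07). As 4 and 3 embryos are too few for a correlation within each set, the relation of *Pou1f1* with other genes across embryos was not tested.

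The first promoter window of *Pou1f1*, shown because PIT1 is known to act on its own gene, lies on the plus strand at chr16:65520262-65520561 (RefSeq, GRCm38.p6), with the same matches in capitals.
*Pou1f1*: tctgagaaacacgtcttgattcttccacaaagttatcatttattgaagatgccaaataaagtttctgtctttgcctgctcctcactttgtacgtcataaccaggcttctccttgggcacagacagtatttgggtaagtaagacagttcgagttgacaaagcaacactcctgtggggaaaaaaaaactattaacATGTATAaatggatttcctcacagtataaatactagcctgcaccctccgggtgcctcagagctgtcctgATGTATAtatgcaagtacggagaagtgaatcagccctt
Its 2 matches begin at -57 and 12 from the start. A second window, at chr16:65523059-65523358, held none.

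*Neurod4* (ENSMUSG00000048015, minus strand, chr10:130268152-130280240) encodes a basic helix-loop-helix factor that takes part in the maturation of somatotrophs. It had 0.0338 to 2.18 CPM in the embryos (median 0.990), and 68.1 and 51.4 CPM in adults 1 and 2. Embryo 7 was the highest with 68 counts, as it was for *Pou1f1*, and embryo 2 had a single count. The groups did not overlap, and the log2 fold change was 5.87 (standard error 0.58, edgeR adjusted p = 3.6e-06). Both factor genes were higher in adult 1 than in adult 2, by 1.54 times for *Pou1f1* and 1.32 times for *Neurod4*.

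Of the receptors through which somatotrophs are driven, *Ghrhr* (ENSMUSG00000004654, plus strand, chr6:55376295-55388530) encodes the receptor for GH-releasing hormone. It had 92.0 and 110.8 CPM in adults 1 and 2, whereas in the embryos it had 4 counts in embryo 3 (0.162 CPM) and none in the other 6. For the summed counts, 7741 in the adults against 4 in the embryos, the ratio scaled for depth was 4056 (95% exact interval 1584 to 14892). The fitted log2 fold change of 11.74 (standard error 0.58, edgeR adjusted p = 1.3e-08) depends on the prior count that edgeR adds. Against the 6 embryos without a count, the lower adult was at least 419-fold higher, taking the highest floor of 3 counts per library, and without embryo 3 the fitted value was 14.37.

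*Ghsr* (ENSMUSG00000051136, plus strand, chr3:27371351-27378010) encodes the ghrelin receptor. It was the scarcest of the 7 genes in the adults, with 2.40 and 2.42 CPM from 99 and 86 counts. Among the embryos, 5 had no count, embryo 6 had 2 counts and embryo 7 had 23 counts (0.738 CPM). Embryo 7 thus came within 3.25 times of the lower adult, and held 23 of the 25 embryonic counts. The log2 fold change was 4.14 (standard error 1.23, edgeR adjusted p = 0.0118), and 6.86 without embryo 7, when the remaining embryos held 2 counts in all. The call did not hold with DESeq2 (adjusted p = 0.195), with either adult left out (edgeR adjusted p = 0.0540 without adult 1 and 0.0557 without adult 2) or when the fold change was tested against 4. Over the alternatives tried, its adjusted p ran from 1.9e-04 to 0.195.

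*Prlr* (ENSMUSG00000005268, plus strand, chr15:10177238-10349180, 12 annotated transcripts) encodes the prolactin receptor. It had 0.435 to 4.61 CPM in the embryos (median 0.738), and 48.8 and 56.8 CPM in adults 1 and 2. Embryos 1 and 4 were the highest, with 4.61 and 2.61 CPM, and the other 5 lay between 0.435 and 0.743 CPM. These are the 2 embryos with the high red-cell levels and the low share of counted read pairs, and the part of either in the level of *Prlr* was not tested. The log2 fold change was 5.24 (standard error 0.64, edgeR adjusted p = 2.1e-05), and 6.38 without both embryos. *Prlr* has the longest transcript of the 7 genes (9900 bases), and once transcript length and GC content were corrected for within each library it was 3.31 (adjusted p = 3.8e-04).

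**Figure D2:**
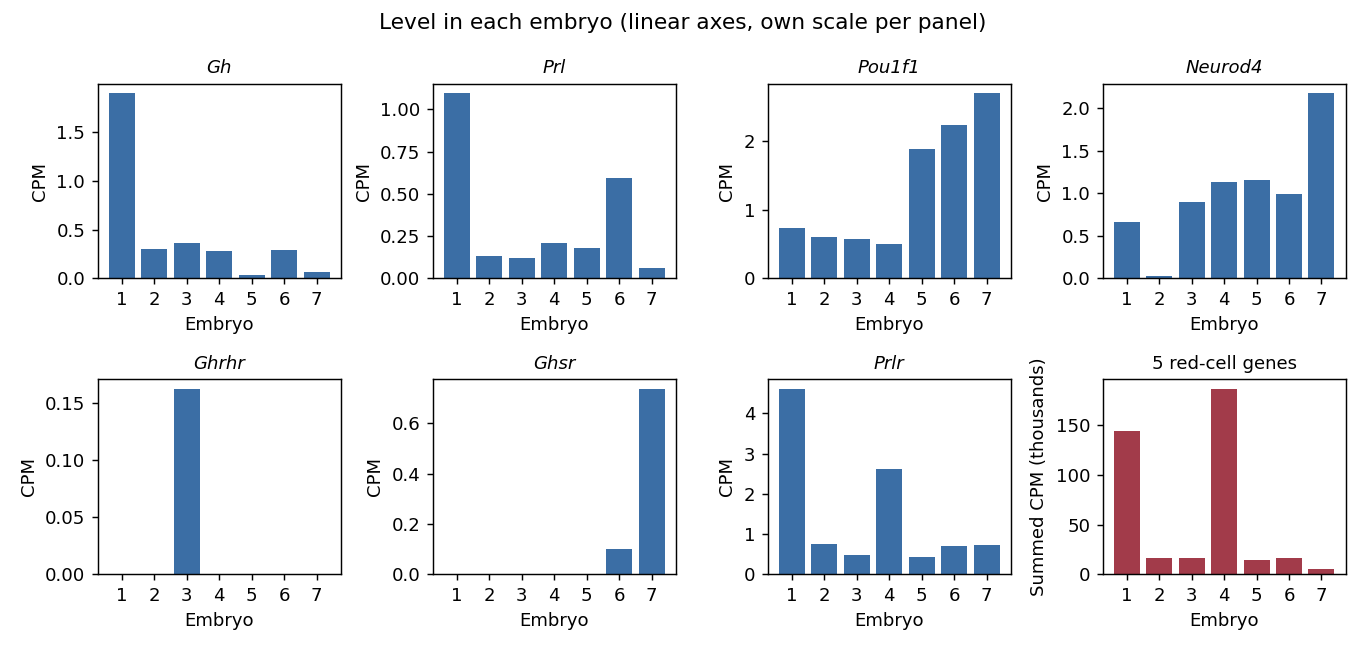
Bars show the CPM of each of the 7 genes, and the summed CPM of 5 red-cell genes, in embryos 1 to 7, on linear axes with a scale of their own. *Pou1f1* was highest in embryos 5 to 7, *Neurod4* and *Ghsr* in embryo 7, *Gh* and *Prl* in embryo 1, and *Prlr* in embryos 1 and 4, the 2 with the most red-cell counts.

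Levels of different genes in the adults were compared per kilobase of the longest annotated transcript. In adults 1 and 2, *Gh* had 61997 and 74030 CPM per kilobase and *Prl* had 69374 and 32824 CPM per kilobase. The order of these hormone genes differed between the adults. *Pou1f1* followed with 61.5 and 39.8 CPM per kilobase and *Ghrhr* with 35.9 and 43.2 CPM per kilobase, and their order also differed between the adults. Then came *Neurod4* with 20.4 and 15.4 CPM per kilobase, *Prlr* with 4.93 and 5.74, and *Ghsr* with 0.541 and 0.545, an order that held in both adults.

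The adults differed in some of these genes and not in others. Among the 14716 tested genes with at least 1 CPM in both adults, the median log2 ratio of adult 1 to adult 2 was 0.03. For *Prl* it was 1.08, and 0.911% of these genes had a larger ratio, while 2.32% were more uneven in either direction. *Pou1f1* followed with 0.63, exceeded by 3.78% of the genes (8.22% in either direction), and *Neurod4* with 0.41, exceeded by 9.03% (18.3% in either direction). *Ghsr* was even at -0.01, and *Gh*, *Ghrhr* and *Prlr* were somewhat lower in adult 1, at -0.26, -0.27 and -0.22. *Drd2* was at -0.24, whereas *Esr1*, which encodes the oestrogen receptor that acts in lactotrophs, was at 0.50. Among the genes of other lineages *Fshb* (1.85), *Cga* (1.03) and *Lhb* (1.02) were also higher in adult 1, and *Tshb* (-0.94) and *Pomc* (-1.20) in adult 2. With 1 library per animal there is no replicate check of these ratios, and animal, sex and dissection cannot be told apart.

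**Figure D3:**
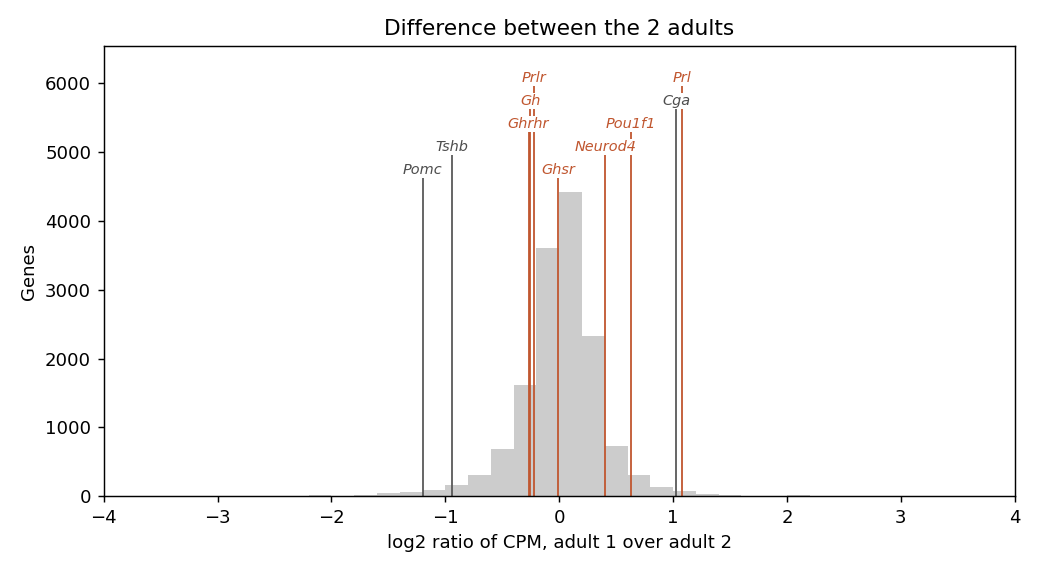
Grey bars count 14716 tested genes by the log2 ratio of their CPM in adult 1 to that in adult 2, and vertical lines mark the 7 genes (orange) and 3 other hormone genes (dark grey); ratios beyond the axis are counted in the outermost bars. *Prl* lies at 1.08 and *Pomc* at -1.20, on opposite sides, and *Gh* at -0.26.

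The third hormone gene that PIT1 activates was read alongside. *Tshb*, the β-subunit of thyroid-stimulating hormone, had 76.4 to 432 CPM in the embryos (median 219), and 229 and 440 CPM in adults 1 and 2. The groups overlapped and its log2 fold change of 0.64 did not pass the test (standard error 0.47, edgeR adjusted p = 0.267), and its sign turned with the length and GC correction and with the replicate block. *Tshb* was thus well above *Gh* and *Prl* in each embryo, including those with the least *Pou1f1*. Which cells the embryonic *Tshb* came from, and whether they expressed *Pou1f1*, was not tested. Of the 9 genes of the other pituitary lineages, to which *Tshb* was assigned, 8 were called higher in the adult and none in the embryo. Their median log2 fold change was 7.58, against 14.6%, 11.3% and 0.04 over all genes tested. *Pax7*, *Lhb* and *Gnrhr* passed the filter only through their adult counts, and of the other 6 genes 5 were called, with a median of 4.17. With the fold change tested against 4, *Cga* was lost and 7 of the 9 were called. Among the called genes were *Pomc* (7.58), *Lhb* (11.68) and *Fshb* (10.37). All 9 had counts in embryo 5 and in both adults, and *Cga* had the highest mean level in the embryos and *Pomc* in the adults.

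Of 12 factor genes that act before, with or after PIT1, 4 were called higher in the adult and 2 in the embryo, with a median log2 fold change of 0.29. Over all genes tested these were 14.6%, 11.3% and 0.04. *Esr1* passed the filter only through its adult counts and *Hesx1* only through its embryonic counts, and of the other 10 genes 3 and 1 were called. The 2 higher in the embryo were *Hesx1* and *Lhx4*. *Hesx1*, which encodes a repressor of the early pouch, had 11.0 to 40.3 CPM in the embryos (median 22.4) and 0.339 and 0.562 CPM in adults 1 and 2, and its log2 fold change was -5.77 (standard error 0.59, edgeR adjusted p = 5.2e-06). *Lhx4*, which encodes a LIM-homeodomain factor, was at -4.29. *Hesx1* was highest in embryo 6 and lowest in embryo 2, and neither group overlapped the other for these 2 genes.

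The adult high genes included nuclear receptors of hormones that act on these cells. *Esr1* had 0 to 0.236 CPM in the embryos (median 0.109) and 170.3 and 120.8 CPM in adults 1 and 2, giving a log2 fold change of 10.19 (standard error 0.44, edgeR adjusted p = 3.3e-09). *Thrb*, the thyroid hormone receptor β gene, had a log2 fold change of 6.46, and like *Pou1f1* it was highest in embryos 7 and 6, with 2.41 and 1.53 CPM. *Nr3c1*, the glucocorticoid receptor gene, was at 2.69, and *Zbtb20*, whose product is needed for lactotrophs to form, at 3.04. *Zbtb20* was highest in embryos 1 and 4 (104 and 66.3 CPM, against 7.89 to 17.3 CPM in the other 5), and reached 4.45 without both. After the length and GC correction *Nr3c1* fell to 1.31 and *Zbtb20* to 0.68 (adjusted p = 0.381), and neither was called, nor with the fold change tested against 4. *Lhx3*, *Pitx1*, *Isl1*, *Gata2*, *Foxo1* and *Rxrg* were not called, although *Foxo1* was called higher in the adult without embryo 1, without embryos 1 and 4 (2.23) and with scaling by library size alone.

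Receptors that act on the release of GH and PRL were higher in the adult where they were called. Of 13 such genes, 6 were called higher in the adult and none in the embryo, with a median log2 fold change of 2.10, against 14.6%, 11.3% and 0.04 over all genes tested. *Trhr*, *Sstr5* and *Gpr101* passed the filter only through their adult counts and *Vipr1* only through its embryonic counts, and of the other 9 genes 4 were called, with a median of 1.96. *Drd2*, the dopamine receptor of lactotrophs, had 0 to 0.693 CPM in the embryos (median 0.192) and 176.6 and 209.0 CPM in adults 1 and 2, giving a log2 fold change of 9.17 (standard error 0.48, edgeR adjusted p = 2.0e-08). Of the 5 somatostatin receptor genes, *Sstr1* (4.94), *Sstr3* (5.47) and *Sstr5* (4.89) were called. *Sstr2* (1.96, edgeR adjusted p = 0.0986) and *Sstr4* (0.24, adjusted p = 0.817) were not, although *Sstr2* was called with the length and GC correction (2.58, adjusted p = 0.0357). Of the 23 embryonic counts of *Sstr5*, 15 were in embryo 4, and its log2 fold change was 6.32 without embryos 1 and 4. *Trhr*, the receptor of thyrotrophin-releasing hormone, had 6.93 and 20.1 CPM in adults 1 and 2, and 9 of its 12 embryonic counts were in embryo 7, the library with the most *Ghsr*. *Adcyap1r1*, the PACAP receptor gene, was also called (3.70), and *Vipr1*, *Vipr2*, *Gpr101*, *Oxtr* and *Igf1r* were not.

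Of 12 genes through which cells respond to GH and PRL, 3 were called higher in the adult and none in the embryo, with a median log2 fold change of 1.44, against 14.6%, 11.3% and 0.04 over all genes tested. With the length and GC correction 1 was called in each direction, and with the fold change tested against 4 none of the 12 was called. *Stat5a*, a transcription factor activated by both receptors, had 3.27 to 5.71 CPM in the embryos (median 4.46) and 41.4 and 17.8 CPM in adults 1 and 2, giving a log2 fold change of 2.75 (standard error 0.33, edgeR adjusted p = 2.1e-05). Like *Prl*, it was higher in adult 1. The kinase gene *Jak2* (2.29) and *Stat3* (2.30) were called, but not after the length and GC correction (1.30 and 1.62). *Ghr*, the GH receptor gene, had 9.50 to 20.7 CPM in the embryos (median 16.1) and 13.1 and 16.4 CPM in the adults. These ranges overlapped, in contrast to those of *Prlr*, and the log2 fold change of *Ghr* was -0.10 (standard error 0.33, edgeR adjusted p = 0.814). Its sign turned with scaling by library size alone and without adult 1. *Stat5b*, *Socs1*, *Socs2*, *Socs3*, *Cish*, *Ptpn6*, *Ptpn11* and *Igf1* were not called. Among the alternatives *Socs2* and *Stat5b* were called higher in the adult with scaling by library size alone. *Socs2* was also called with at least 10 counts in every library (2.01) and with the replicate block (2.04), among others. *Stat5b* was also called without embryo 2 (2.01). *Igf1* was called higher in the embryo after the length and GC correction (-2.74, edgeR adjusted p = 5.8e-04).

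**Figure D4:**
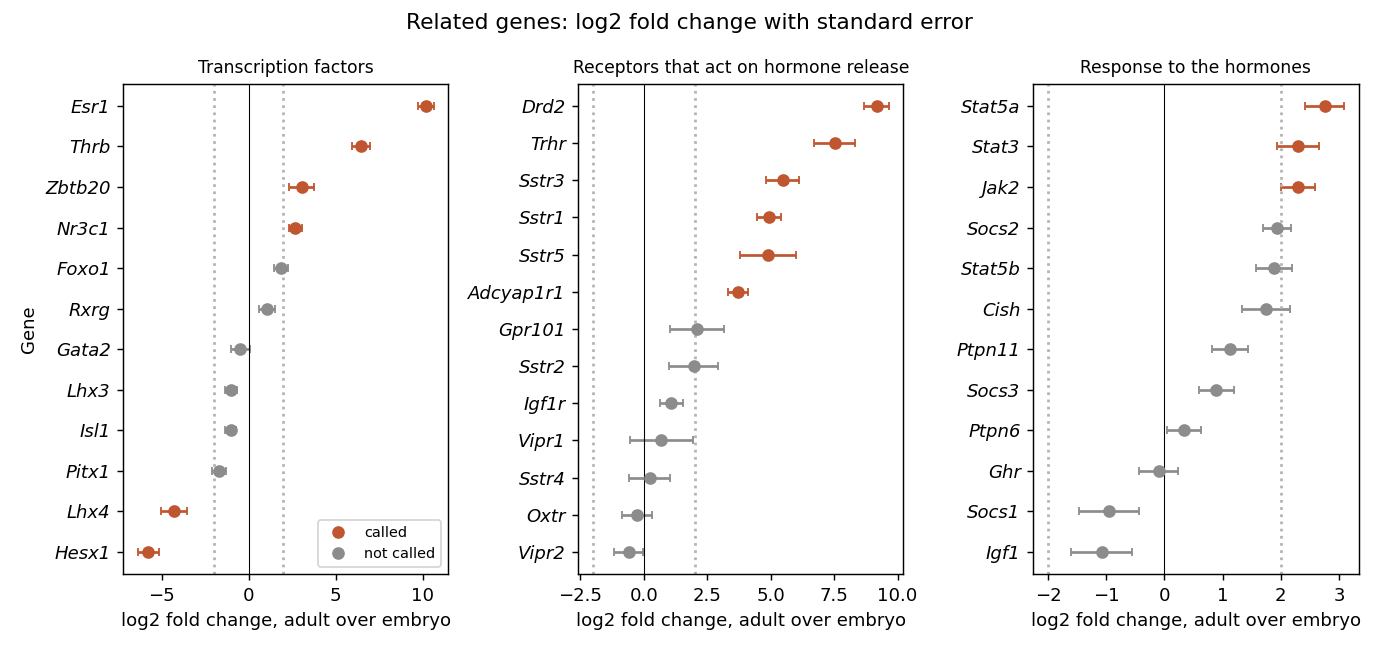
Points show the log2 fold change, adult over embryo, with its standard error for genes in 3 groups, the factors, the receptors that act on hormone release and the genes of the hormone response; orange points were called and dotted lines mark a fold change of 4. *Esr1* (10.19) and *Drd2* (9.17) lie highest, and *Hesx1* (-5.77) lowest.

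Genes for ligands of these receptors were read too, with *Th*, which encodes an enzyme of dopamine synthesis. Of the 6 genes *Ghrh*, *Sst*, *Ghrl*, *Trh*, *Vip* and *Th*, 5 were tested, 3 were called higher in the embryo (*Ghrh*, *Sst* and *Trh*) and none in the adult, against 11.3% and 14.6% of all genes tested. The summed level was 2.86 to 22.4 CPM in the embryos and 6.57 and 1.63 CPM in adults 1 and 2. *Sst* had 17.6 and 6.38 CPM in embryos 2 and 6. *Ghrh* did not exceed 0.594 CPM in any library, and *Ghrl* had at most 2 counts in a library and was not tested. *Ghrh*, *Sst*, *Trh* and *Vip* passed the filter only through their embryonic counts. *Th* was called higher in the adult with the length and GC correction (2.12) and without adult 2 (2.21). The adult values of the 3 called genes were 3 counts or fewer, so no fold change is given, and the calls of *Ghrh* and *Sst* were lost when either adult was left out, among other alternatives, and that of *Trh* with the replicate block.

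Markers of other tissues were read beside these results, and their part in them was not tested. The most abundant gene of each list is given by its mean level in each group, and the numbers called in each list stand against 11.3% of all genes tested for the embryo and 14.6% for the adult. Of 8 neural genes, 6 were tested, with 2 called higher in the embryo (*Nkx2-1* and *Rax*) and none in the adult. Their summed level was 107.7 to 438 CPM in the embryos, the highest in embryo 2, and 105 and 72.7 CPM in the adults. *Tubb3* was the most abundant in both groups, and *Neurog1* was at 0 in 4 embryos. *Pou4f1*, which passed the filter only through its embryonic counts, was called higher in the embryo without embryo 2, among other alternatives. For the posterior lobe and its forerunner, *Avp* and *Oxt*, expressed by neurons that project there, were read with *Nkx2-1* and *Rax*. The summed level of these genes was 45.5 to 134.3 CPM in the embryos and 5.89 and 8.94 CPM in the adults. In each direction 2 were called, *Avp* and *Oxt* having passed the filter only through their adult counts. *Rax* was the most abundant in the embryos and *Avp*, at 0 in all 7 embryos, in the adults. The 4 choroid plexus genes summed to 13.9 to 41.6 CPM in the embryos and 142.1 and 135.2 CPM in the adults. *Aqp1* was the most abundant in the embryos and *Folr1* in the adults. *Folr1* and *Kl* were called higher in the adult, whereas *Ttr* (log2 fold change -0.02) and *Aqp1* (-0.39) were not called. *Ttr* had 0.878 to 4.36 CPM in the embryos and 1.33 and 2.39 CPM in adults 1 and 2. *Kl* was at 0 in embryos 1 and 4 and passed the filter only through its adult counts.

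The 4 mesenchyme genes summed to 560 to 2109 CPM in the embryos and 546 and 335 CPM in the adults, with *Col3a1* the most abundant in the embryos and *Col1a2* in the adults, and 3 of the 4 called higher in the embryo, against 11.3% of all genes tested. With the fold change tested against 4 none of them was called, and 2 were with scaling by library size alone. The 3 muscle genes summed to 0.586 to 6.48 CPM and 0.533 and 0.309 CPM, with *Myog* the most abundant in the embryos and *Acta1* in the adults. *Myod1* was at 0 in both adults, and 2 of the 3 were called higher in the embryo, *Myod1* not without either adult or with the fold change tested against 4, and *Myog* not with the replicate block. All 3 passed the filter only through their embryonic counts. Of the 3 endothelial genes none was called, although *Cdh5* was called higher in the embryo without adult 1 (-2.24), without embryos 1 and 4 (-2.03) and with the replicate block (-2.07). They summed to 72.3 to 289 CPM and 87.6 and 49.8 CPM, with *Cdh5* the most abundant in the embryos and *Kdr* in the adults. Of the 3 immune genes *Ptprc* was called higher in the adult, but not without adult 2 (2.03, edgeR adjusted p = 0.0540), with the replicate block (adjusted p = 0.0505), with the length and GC correction (1.43) or with the fold change tested against 4. They summed to 23.5 to 68.8 CPM and 28.0 and 41.6 CPM, with *C1qa* the most abundant in both groups. The stem cell genes *Sox2*, *Sox9* and *S100b* were not called and summed to 58.7 to 91.7 CPM and 87.1 and 76.1 CPM, with *Sox2* the most abundant in both groups, 1 allele of which carried *Egfp* in the embryos. Of the 5 red-cell genes 4 were called higher in the embryo, and 2, without *Hba-a1* and *Hbb-bt*, when either adult was left out, with the length and GC correction, or with the fold change tested against 4. These 2, *Hba-x* and *Hbb-y*, passed the filter only through their embryonic counts. *Alas2* was called as well under some alternatives, DESeq2 among them. Their median log2 fold change was -5.28, and -2.83 without embryos 1 and 4.

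The genes whose values over the 9 libraries were most like each of the 7 were named by Pearson’s r of log2(CPM + 0.5), as a description. With 7 low and 2 high libraries such values rest mostly on the stage difference, and r was above 0.95 for 884 genes with *Gh* and 360 with *Prlr*, of 19370. The gene most like *Gh* was *Prl* (r = 0.998), and those most like *Prl* were *Gm13017*, *Apol9b* and *9630013D21Rik*, all with no count in the embryos and 0.815 to 1.70 CPM in the adults. For *Pou1f1* they were *Gm7265*, *Sytl4* and *Ubr3* (r = 0.999, 0.994 and 0.994), of which *Sytl4*, a gene of secretory vesicle transport, had 23.5 CPM in embryo 7, 7.76 to 14.7 CPM in the other embryos, and 245 and 225 CPM in the adults. For *Neurod4* they were *Lrba*, *Cmpk2* and *Cpeb1os1*, for *Ghrhr* *Elobl*, *Gm42809* and *Tent5d*, and for *Ghsr* *Ahctf1*, *Tbc1d23* and *Kidins220*. *Prlr* was most like *Pak3* (r = 0.997), which was also highest among the embryos in embryos 1 and 4, with 25.0 and 16.8 CPM against 4.87 to 8.46 CPM in the other 5.

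Within 100 kb of *Gh* lie 13 genes, of which 12 were tested, 3 were called higher in the adult and 2 in the embryo, against 14.6% and 11.3% of all genes tested. *Scn4a*, a sodium channel gene that passed the filter only through its adult counts, had 2.71 and 2.02 CPM in the adults and a log2 fold change of 3.86, *Ern1* had 3.30 and *Ccdc47* 2.21, while *Icam2* had -3.29 and *Prr29*, which passed only through its embryonic counts, -2.49. The gene nearest to *Gh*, *Cd79b*, had 2.54 and 3.74 CPM in the adults and was not called (0.28, standard error 0.68, edgeR adjusted p = 0.751). Within 100 kb of *Prl* lie 4 genes, none of them tested. The placental genes *Prl3d1*, *Prl3d2* and *Prl3d3* had no count in any library, and *Gm47888*, which overlaps the start of *Prl* on the other strand, had 9 and 5 counts in the adults.

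Of the 25 placental members of the prolactin family, 12 had no count in any library and 3 were tested, all of which passed the filter only through their embryonic counts. *Prl3b1* had 0.934 to 3.38 CPM in the embryos (median 1.82), and 10 and 2 counts in adults 1 and 2. Its log2 fold change was -3.60 (standard error 0.85, edgeR adjusted p = 0.00290), opposite in direction to *Prl*, and it was not called without adult 2 (-2.92, adjusted p = 0.0552), with the replicate block (-3.76, adjusted p = 0.0864) or with the fold change tested against 4 (adjusted p = 0.0728). *Prl2b1* and *Prl8a9* were not called. Counts of these genes are uncertain, as near-identical copies share read pairs and only read pairs with a single best place were counted. *Pou1f1* is overlapped by an antisense gene, and with the unstranded count, in which ambiguous pairs are dropped, it had 4786 and 2679 counts in adults 1 and 2, against 5686 and 3175 with the stranded count used.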

How the data were processed

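RNA of 7 embryonic pouches and 2 adult glands was analysed, grouped by the sample labels. The authors trimmed read pairs with Trimmomatic 0.39, aligned them to mm10 (GRCm38) with STAR 2.7.5b, as their processing notes give, and deposited raw counts per gene for each strand, without normalisation. Libraries were directional and poly(A)-selected. The strand-specific count was used, and all 55450 identifiers matched GENCODE M21 (Ensembl 96). For 19371 genes the average count reached 5, and these were fitted with edgeR 4.0.16 in R 4.3.3 (TMM factors, quasi-likelihood test, stage as the only term), with Benjamini–Hochberg adjustment over all of them. This procedure was tested on simulated data. DESeq2 1.42.0 was an alternative, with others of scaling, filter, strand, threshold, libraries, length and GC content, and the replicate number as a block. Python 3.11.15 with scipy 1.17.1 gave exact intervals, and matplotlib 3.10.9 the figures. Promoters are from RefSeq. The 7 genes, the gene lists and the leaving out of embryos 1 and 4 were chosen with earlier results of these data known. Some genes of the lists are not reported here and were left out of their counts and sums. Genes named are the 7, the other members of the lists, placental genes of the prolactin family, genes within 100 kb of *Gh* or *Prl*, and those with the highest r. The comparison of embryonic with adult counts of the hormone genes was chosen after seeing the data.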

Additional observations from a re-analysis of the deposited data

Results flagged for a closer look

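The 23 measures over the 7 embryos were the 7 genes, the summed marker lists and the share of counted read pairs. In 4 of them a single embryo lay far from the others, by the gap to its neighbour over the whole range. The chance rate of about 1 in 20 does not hold for *Ghrhr* and *Ghsr*, which had no count in most embryos. The 4 are therefore not set against that rate. *Gh* was at 1.90 CPM in embryo 1 (gap 0.824 of the range), from 26 counts. *Ghrhr* was at 0.162 CPM in embryo 3, the only embryo with a count. *Ghsr* was at 0.738 CPM in embryo 7 (gap 0.866 of the range). The summed posterior lobe genes were at 134.3 CPM in embryo 2 (gap 0.621 of the range), which also had the highest summed neural markers. Counts on the strand opposite to the gene, which the comparisons do not use, were above 3 for 4 of the 7 genes. They were 1681 and 1794 for *Gh* in adults 1 and 2, 0.0776% of its summed counts, and 832 and 373 for *Prl*. For *Pou1f1* they were 4 in embryo 6 and 10 and 17 in adults 1 and 2, and for *Prlr* 12 in adult 2. Their source was not tested.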

How the results depend on the processing

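The number of genes called between embryo and adult was 5001, and it was 2642 when at least 10 counts in every library were required, 8960 with a fold change above 2, and 1744 with the fold change itself tested against 4. The number of the 7 genes called higher in the adult was 1 with at least 10 counts in every library, since only *Prlr* was then tested, and 6 with DESeq2, with the fold change tested against 4 or without either adult, the gene lost being *Ghsr*. Leaving out each library in turn gave 3683 to 5290 genes called, and 6 to 7 of the 7 genes. The replicate block, on replicates 1 and 2 of each stage, gave 4151 genes called and all 7 of the 7 genes. The animals share only a number, as deviations of same-numbered libraries correlated at 0.033 and 0. Of 134 alternative fold changes of the 7 genes, which leave out the alternatives of threshold, 131 kept their direction and their call, 3 lost the call and none reversed. Of 44 alternative numbers of genes called, 40 stayed within 1.5 times the main one. The log2 fold changes ran from 16.03 to 18.54 for *Gh*, 16.50 to 18.09 for *Prl*, 6.07 to 7.31 for *Pou1f1*, 5.21 to 7.88 for *Neurod4*, 11.48 to 14.61 for *Ghrhr*, 3.66 to 9.17 for *Ghsr* and 3.31 to 6.38 for *Prlr*. Scaling by library size alone moved the median of all genes to 0.26, from 0.04. The planned relations across embryos, and the naming of genes by them, were not run. Depth limits *Ghrhr* and *Ghsr* in the embryos, where most libraries had no count.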

Other observations

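The embryonic counts per 1000000 adult counts differed widely among the 7 genes, a comparison chosen after seeing the values. Beside 12.7 for *Gh* and 12.2 for *Prl*, they were 517 for *Ghrhr*, 25956 for *Pou1f1*, 36191 for *Neurod4*, 45342 for *Prlr* and 135140 for *Ghsr*, without scaling for the 7 and 2 libraries summed. The value of *Ghsr* rests on 25 embryonic counts, of which 23 were in embryo 7. Embryo 7, with 84 counts of *Pou1f1*, 68 of *Neurod4* and 23 of *Ghsr*, had 2 counts of *Gh* and 2 of *Prl*, the fewest of *Prl* in any embryo and the second fewest of *Gh*. Embryo 1, with the most *Gh* (26 counts) and *Prl* (15 counts), had 10 counts of *Pou1f1* and none of *Ghrhr* or *Ghsr*.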
